A study of Mus musculus with 6 samples.

Results

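MARIO records which RNAs lie close together in a cell. Proteins hold neighbouring RNAs together after crosslinking, and ligation through a short biotin-tagged RNA linker turns such neighbours into 1 molecule. Reading it gives RNA1 before the linker and RNA2 after it. The contacts described here joined 2 messenger RNAs of different genes, with each end inside an annotated 5′ untranslated region, exon or 3′ untranslated region, and with the 2 ends on different chromosomes. They were chosen by the annotation of the deposited read pairs: protein-coding at both ends, different gene names, regions named utr5, exon or utr3, and different chromosomes. Read pairs of identical coordinates in a library were counted once. This gave 12501 distinct contacts of 5207397 distinct read pairs in the 3 embryonic stem (ES) cell libraries. All 6 libraries of the series held 10479650 lines.

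All 3 libraries were made from ES cells of the E14 line and strain 129/Ola, with no other treatment named in the labels. ES-1 and ES-2 were assayed with ultraviolet crosslinking at 254 nm and RNase I fragmentation to about 1000 nt by the labels. They differed in how ribosomal RNA was depleted, and the methods give a wider range of fragment sizes for ES-1. ES indirect was crosslinked with formaldehyde and EthylGlycol bis (SuccinimidylSuccinate), which also joins RNAs through several proteins, and was sonicated to about 1000 nt. Each library is 1 sample, so tests within a library describe that library, and the intervals below are 95% intervals of counting error only. Of 20 markers of ES cells, 19 or 20 were covered by exonic mRNA ends in each library with 1348, 540 and 2131 sense ends of at least 25 nt that matched the genome in ES-1, ES-2 and ES indirect, against 17, 11 and 24 ends for 16 fibroblast markers and 7, 2 and 17 for 10 markers of neurons and glia.

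A messenger RNA is read by ribosomes along its coding part, while the 5′ untranslated region is scanned by initiating ribosomal subunits and the 3′ untranslated region is bound by regulatory proteins and microRNAs. Abundant mRNAs meet more neighbours than rare ones, so a contact count carries the level of both mRNAs. Many mouse mRNAs also have near-identical copies elsewhere in the genome, such as processed pseudogenes annotated as genes, and a read from such a family can be assigned to more than 1 of them.

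Sequences of chosen contacts are printed first, since the rest of the results turn on what the fragments held. Each is 30 bases or fewer as read, 5′ to 3′, with mm9 (NCBIM37) coordinates. In the first set the 8 bases next to the linker are in capitals, which are the last bases of RNA1 and the first bases of RNA2. Hnrnpa0, a nuclear RNA-binding protein, and Mcm5, a subunit of the replicative helicase, were joined in 2 libraries at separate places. In ES indirect, RNA1 lay at chr13:58229378-58229407 on the minus strand and RNA2 at chr8:77634194-77634223 on the plus strand. In ES-1, RNA1 lay at chr8:77639835-77639864 and RNA2 at chr13:58229245-58229274, on the same strands.
Hnrnpa0 (RNA1, ES indirect): cggcccggggcgcacgccaaggTGAAGAAG
Mcm5 (RNA2, ES indirect): ATCAGCTTgaggaagctgccaaggaggtgg
Mcm5 (RNA1, ES-1): caagggccgggacagggtaggtGTGGGCAC
Hnrnpa0 (RNA2, ES-1): AGTCGGGCaagaagcgcggcttcggcttcg

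The second set shows a contact between 2 gene names whose sequences are copies of 1 another. Gm10718 and Gm10800 are satellite-like gene models, and their pair had the most contacts of all. RNA1 was assigned to Gm10718 at chr9:3024397-3024426 on the minus strand and RNA2 to Gm10800 at chr2:98507275-98507304 on the plus strand, both labelled exon, and the 2 whole fragments could be set in a single transcript, 359 bases apart. These fragments were 90 and 100 nt long, and whether reads of these lengths reached the linker was not tested.
Gm10718 (RNA1, ES indirect): tgcacactgaaggacctggaatATGGCGAG
Gm10800 (RNA2, ES indirect): AGAAATGCacactgaaggacctggaatatg

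The third set shows the most frequent fragment at 4 genes whose ends lay almost all in 1 window of 30 nt, most of them from ES-2, and was chosen after the values were seen. Here the capitals mark the run of bases that a fragment shared with another gene of the set. These fragments were nearly the same sequence, although their stated positions were chr7:4691731-4691756, chr17:26568794-26568820, chr4:150288484-150288507 and chr6:54767154-54767179, and they differed from mm9 there at 4, 6, 5 and 6 bases.
Suv420h2 (minus strand): cGCGCGGCGCCTCGCCTCGGCCGGCG
Neurl1b (minus strand): GCGCGGCGCCTCGCCTCGGCCGGCGCc
Park7 (plus strand): CGCGCGGCGCCTCGCCTCGGCCGG
Znrf2 (plus strand): GCGCGGCGCCTCGCCTCGGCCGGCGC

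ES-1 held 3315 distinct exonic contacts, ES-2 held 4344 and ES indirect held 4842. Their libraries held 2310134, 1241787 and 1655476 distinct read pairs. Merging contacts whose 4 ends all lay within 5 bases left 3264, 4240 and 4626. Of all mRNA to mRNA contacts between chromosomes, both ends were exonic in 20.4% (19.8 to 21.04) in ES-1, 16.6% (16.1 to 17.03) in ES-2 and 7.33% (7.14 to 7.53) in ES indirect. Both ends were intronic in 27.1%, 31.2% and 60.7%. The 3 intervals for the exonic share did not overlap, so ES indirect had the lowest share of exonic contacts and ES-1 the highest.

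The fragments were compared with mm9, with each other and with RNA that is repeated in the libraries, and the contacts were sorted into 5 states in this order. The states were set after seeing the data. In the first, a fragment could also be placed in the partner gene. In the second, a fragment differed from mm9 at its stated position at more than 15% of bases. In the third, at least 50% of a fragment was covered by 14-base words seen in at least 50 distinct ribosomal, transfer, small nuclear or small nucleolar RNA reads, or it held a 10-base piece of the linker or adapter. In the fourth, a fragment was under 25 nt. The remaining contacts are called placed.

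**Figure D1:**
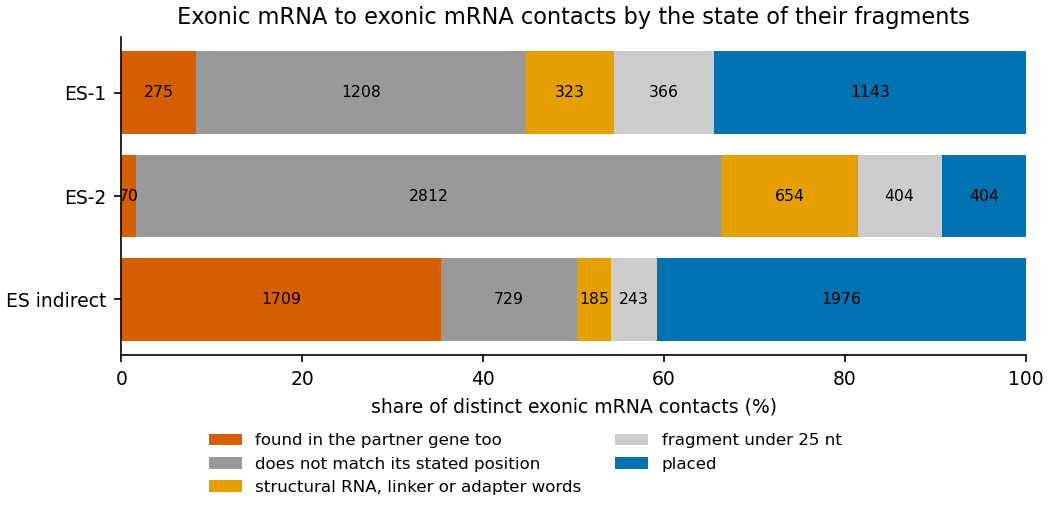
Horizontal bars give the share of distinct exonic mRNA contacts (percent) in each state for ES-1, ES-2 and ES indirect, with the number of contacts printed in each segment. Placed contacts fill 34.5% of the first bar, 9.30% of that of ES-2 and 40.8% of that of ES indirect.

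Sorted in this order, unmatched contacts were the most frequent state in ES-1 and ES-2, and placed contacts in ES indirect. In ES-1, 1208 contacts (36.4%, 34.8 to 38.1) did not match their stated position and 1143 (34.5%, 32.9 to 36.1) were placed, with overlapping intervals. In ES-2, 2812 (64.7%) did not match and 404 (9.30%) were placed. In ES indirect, 1709 (35.3%) were found in the partner gene and 1976 (40.8%) were placed. Over the libraries, 3523 of 12501 contacts (28.2%) were placed, 4749 did not match, 2054 were found in the partner gene, 1162 of the rest held structural RNA words, linker or adapter, and 1013 of those then left had a short fragment. Counted without this order, 4864 contacts (38.9%) held such words and 6127 (49.0%) had a short fragment.

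Fragments were shortest in ES-2 and longest in ES indirect. Taking all contacts, RNA1 and RNA2 fragments of ES-1 had medians of 31 and 56 nt, those of ES-2 had 22 and 26 nt and those of ES indirect had 66 and 85 nt. RNA1 was shorter than 20 nt in 20.9%, 35.0% and 9.79% of contacts. Among placed contacts the medians drew closer, at 51 and 62 nt in ES-1, 40 and 42 nt in ES-2, and 59 and 66 nt in ES indirect. This follows in part from the rule, which leaves out fragments under 25 nt. It also leaves out contacts found in the partner gene, whose medians in ES indirect were 90 and 100 nt. Ends that did not match mm9 were short in every library, with medians of 22 to 24 nt, of which the longest exact run had a median of 12 to 14 bases.

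Strand set the placed contacts apart. A fragment of a mature mRNA lies on the sense strand of its gene. Among ends that did not match mm9, 48.2% to 51.4% were sense at either end in any of the 3 libraries. Over all exonic contacts, 77.2% of RNA1 and 88.3% of RNA2 ends were sense in ES-1, while ES-2 had 64.2% and 71.6% and ES indirect had 79.8% and 87.5%. Among placed contacts these were 98.6% (97.7 to 99.1) and 98.4% (97.5 to 99.0) in ES-1. ES-2 had 97.8% (95.8 to 98.8) and 97.5% (95.5 to 98.6), while ES indirect had 96.0% (95.05 to 96.8) and 96.9% (96.04 to 97.6). Contacts in the state of short fragments came near this for RNA2, with 94.8%, 93.5% and 93% sense in ES-1, ES-2 and ES indirect. In ES-2 their interval overlapped that of placed RNA2 ends. For RNA1 they had 77.8%, 76.7% and 77.4%.

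Intronic ends of mRNA to mRNA contacts that matched mm9 over at least 25 nt were sense in 55.7% of RNA1 and 51.7% of RNA2 ends in ES-1, while ES-2 had 46.2% and 66.5% and ES indirect had 79.8% and 88.6%. The difference between placed exonic and such intronic ends left out 0 in all 6 comparisons (Newcombe intervals). For RNA1 it was 42.9 percentage points in ES-1, 51.6 in ES-2 and 16.2 in ES indirect, and for RNA2 it was 46.7, 31.05 and 8.34. Placed ends had passed more filters than these intronic ends. Over all ends without filters, the difference between exonic and intronic ends was 27.45, 15.3 and 15.6 percentage points for RNA1 and 37.6, 17.2 and 8.81 for RNA2, again with no interval that held 0. The order of the libraries thus depended on the filter, with ES-2 highest for RNA1 in the first comparison and, in the second, below ES-1 and within the interval of ES indirect. Both mRNAs of a placed contact were sense in 1105 of 1131 contacts in ES-1, 389 of 401 in ES-2 and 1815 of 1950 in ES indirect. In ES indirect, contacts with 1 antisense end numbered 57 and 74, and those with both antisense 4. In ES-2 the 7 contacts with both ends antisense outnumbered the 5 with 1 antisense end.

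**Figure D2:**
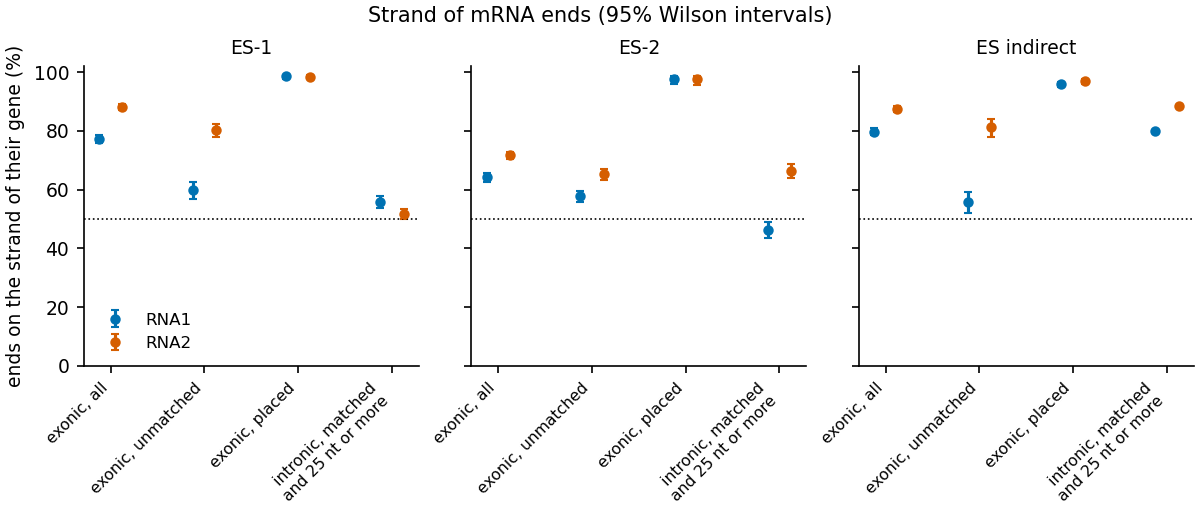
Points give the percent of ends on the strand of their gene, with 95% Wilson intervals, for RNA1 and RNA2 in each library, and the dotted line marks 50%. Placed exonic ends sit at 96.0% or above in all 3 libraries, while matched intronic ends lie near the line in ES-1 and rise to 88.6% in ES indirect.

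The first question was whether a region of RNA1 preferred a region of RNA2. Over all contacts, region combinations departed from independence in each library (Pearson's chi-square on the table of 9 combinations, p = 9.41e-05 in ES-1, 0.00366 in ES-2 and 1.42e-29 in ES indirect), with small effects (Cramér's V of 0.0597, 0.0423 and 0.121). Contacts between 2 ends labelled utr3 were 1.19 times (1.09 to 1.29) the count expected from the row and column totals in ES-1, 1.00 times (0.885 to 1.14) in ES-2 and 1.38 times (1.31 to 1.47) in ES indirect. The observed counts were 263 against 222 expected, 156 against 155 and 447 against 323. With each gene pair and its regions counted once, V in ES indirect was 0.0456, still past the threshold, and the ratio 1.10 (1.03 to 1.18). With fragments that match mm9, V in ES-1 was 0.108.

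In placed contacts no departure passed the test. Their chi-square p was 0.790 in ES-1, 0.622 in ES-2 and 0.917 in ES indirect. Cramér's V was 0.0273, 0.057 and 0.0155, so that in ES-2, with 404 contacts in place of 4344, it was no smaller than in all contacts. The ratio for 2 utr3 ends was 1.05 (0.936 to 1.19), 1.16 (0.889 to 1.51) and 0.962 (0.882 to 1.05). Over the 3 libraries it was 1.24 (1.18 to 1.295) in all contacts and 1.00 (0.937 to 1.07) in placed contacts, with 375 observed and 374 expected. The ratio within the state in which a fragment was also found in the partner gene was 5.18 (4.50 to 5.95) in ES-1, 4.44 (2.95 to 6.71) in ES-2 and 3.83 (3.53 to 4.14) in ES indirect. Leaving out only those contacts brought the 3-library ratio to 1.02 (0.970 to 1.08).

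Each library was sequenced on 2 flow cells. Over all contacts the ratio for 2 utr3 ends was 1.17 (1.04 to 1.32) and 1.202 (1.07 to 1.35) on those of ES-1, 0.864 (0.717 to 1.04) and 1.23 (1.04 to 1.46) on those of ES-2, and 1.58 (1.47 to 1.70) and 1.17 (1.07 to 1.29) on those of ES indirect. The intervals of the flow cells did not overlap in ES indirect and barely overlapped in ES-2, and gene copies made up 41.8% and 26.25% of contacts on those of ES indirect. Their part in the result was not tested. The placed ratio for 2 utr3 ends was 0.963 and 1.15 on those of ES-1, 0.964 and 0.960 on those of ES indirect, and 0.939 (0.632 to 1.39) and 1.68 (1.2 to 2.34) on those of ES-2. The last value rested on 132 placed contacts, whose table gave a chi-square p of 0.163. In the remaining flow cells the interval held 1.

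**Figure D3:**
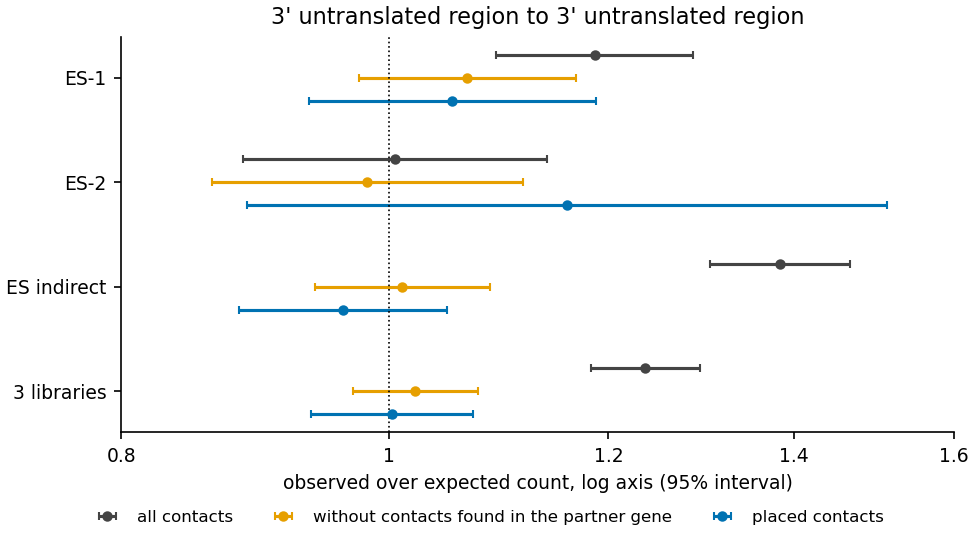
Points give the observed over expected count of contacts between 2 ends labelled utr3 on a log axis, with 95% intervals, for each library and the 3 together. All contacts lie at 1.24 over the 3 libraries, and the contacts without those found in the partner gene and the placed contacts lie at 1.02 and 1.00.

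The share of utr3 was also read in mRNA ends joined to other RNAs. Among sense ends of placed contacts, utr3 made up 31.2% in ES-1, 23.7% in ES-2 and 33.8% in ES indirect. Among all sense exonic mRNA ends of at least 25 nt that matched mm9 and were joined to ribosomal RNA it made up 29.8%, 24.2% and 29.5%, and among those joined to small nucleolar RNA 31.5%, 26.6% and 28.3%. In ES-1 and ES-2 the placed intervals (29.3 to 33.1 and 20.8 to 26.8) overlapped those of both partners, whereas in ES indirect the placed share (32.3 to 35.3) lay above both (29.1 to 29.9 and 25.7 to 31.1). In ES indirect, ends joined to intronic mRNA had 35.1%, to other RNA 32.6% and to unannotated RNA 32.3%, and these intervals overlapped the placed one. Sense ends of exonic contacts between chromosomes had 28.3% there before the contacts were sorted into states. Ends joined to the same gene name had 36.4%, 28.2% and 38.5% in ES-1, ES-2 and ES indirect. For ends joined to an exonic mRNA on the same chromosome it was 22.5%, 26.6% and 12.5%.

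Placed sense ends were then set on their mRNAs by the GENCODE coding sequence rather than by the deposited label. The coding part held 63.2% to 72.9% of ends, against 56.2% to 59.8% of the length of the same mRNAs, which is 1.12 to 1.22 times its length. The 3′ untranslated region held 20.9% to 31.3% of ends, or 0.610 to 0.868 times its length. At both ends in all 3 libraries the length share lay below the 95% interval of the coding ends and above that of the 3′ ends. The deposited label and the GENCODE part were the same for 90.6% to 92.5% of ends. The label exon meant coding sequence in 99.1% to 100% of ends. The label utr5 did so less well, since only 48.3% to 71.3% of those ends lay in the 5′ untranslated region of the transcript used. By label, exon made up 58.8%, 62.2% and 54.2% of placed sense ends in ES-1, ES-2 and ES indirect. Among mRNA ends joined to ribosomal RNA it made up 60.0%, 62.5% and 57.0%, so the share was no higher in placed contacts.

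The 5′ untranslated region was the part in which RNA1 and RNA2 differed. It held 7.77% of RNA1 and 4.35% of RNA2 ends in ES-1, a difference of 3.42 percentage points (1.41 to 5.47). In ES indirect it held 7.47% and 5.13%, a difference of 2.35 points (0.745 to 3.98). In ES-2 it held 8.64% and 5.84%, and the difference of 2.80 points had an interval that included 0 (−0.930 to 6.59). Against its share of length, RNA1 stood at 1.00 to 1.15 times and RNA2 at 0.596 to 0.787 times. By the deposited label utr5 the difference was 2.40 points (−0.0728 to 4.88) in ES-1, 2.47 (−2.34 to 7.26) in ES-2 and 2.06 (0.0359 to 4.09) in ES indirect, so that the interval of ES-1 then included 0. Differences in the coding part and 3′ untranslated region had intervals that included 0 in each library.

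Along the mRNA, the last 10% of the length held the fewest ends for RNA1 and RNA2 in all 3 libraries, with 3.71% to 6.13% of them. The first 10% held 8.80% to 12.6%. The median position was 41.8% to 46.0% of the way from the 5′ end, on mRNAs with a median length of 3418 to 3736 nt.

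**Figure D4:**
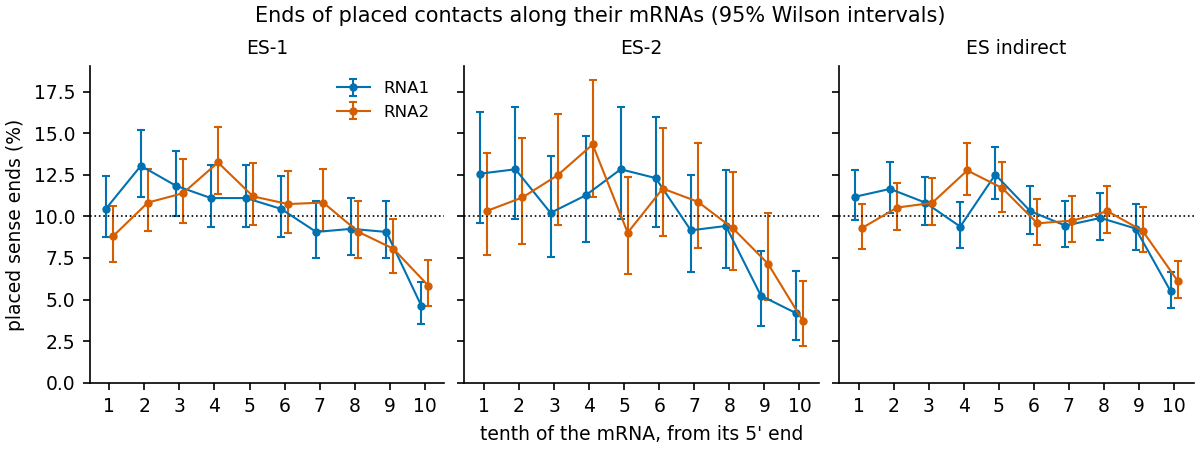
Points give the percent of placed sense ends in each 10% of the mRNA length, counted from its 5′ end, with 95% Wilson intervals, for RNA1 and RNA2. The dotted line marks an even spread of 10%, and the last 10% lies at 3.71% to 6.13% in all 3 libraries.

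Next, the bases at the ligation point were read. The base of RNA1 next to the linker differed from mm9 in 48.0% of placed contacts in ES-1, 68.3% in ES-2 and 65.3% in ES indirect, whereas the next base differed in 7.79% in ES-1 and the 12th base in 0.0875%. For RNA2 the first base differed in 19.7%, 9.41% and 23.9%. The mismatched base was C in 85.8%, 92.0% and 89.3% of cases for RNA1, and A in 76.0%, 52.6% and 74.4% for RNA2. The linker given in the methods begins with C at the side of RNA1 and ends with A at the side of RNA2. The share of mismatched bases that came from the linker was not tested.

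Contacts of gene copies were more frequent in ES indirect than in ES-1 or ES-2. For 2021 of 2054 such contacts, both fragments could be set in a single transcript, and in all 2021 they lay on the same strand of it. The median number of bases between them, counted as negative where they overlapped, was 5 in ES-1, 23 in ES-2 and 16 in ES indirect. They overlapped in 39.7%, 25.7% and 27.5%, and 82.7%, 71.4% and 80.7% overlapped or lay within 100 nt. Without the satellite-like gene models the medians were −1, 8.5 and 10, and in contacts with such a model 44, 42.5 and 51. Such models took part in 38 of the 70 contacts in ES-2. RNA1 lay upstream in 80.9% (75.8 to 85.1) in ES-1 and 75.3% (73.2 to 77.3) in ES indirect, but in 47.1% (35.9 to 58.7) of 70 contacts in ES-2. Their fragments had the same pair of lengths, 90 nt for RNA1 and 100 nt for RNA2, in 87.6% of contacts in ES-1, 67.1% in ES-2 and 79.2% in ES indirect. Placed contacts had this pair of lengths in 14.9%, 3.22% and 8.35%, and unmatched contacts in none. In placed contacts with these lengths, the base of RNA1 stated to be next to the linker differed from mm9 in 22 of 170 in ES-1, 3 of 13 in ES-2 and 27 of 165 in ES indirect. With other lengths it did in 527 of 973, 273 of 391 and 1264 of 1811. For RNA2 the counts were 20 of 170, 5 of 13 and 37 of 165 with these lengths, and 205 of 973, 33 of 391 and 436 of 1811 with others.

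The gene pairs behind these contacts fell mostly into 3 groups. Satellite-like gene models of chromosomes 2 and 9 took part in 608 contacts (29.6%). Gm10718 with Gm10800 had 50 contacts in ES-1, 4 in ES-2 and 155 in ES indirect, and Gm10722 with Gm10800 had 27, 12 and 112. Genes with a related sequence or a numbered gene model formed the second group, with 106, 11 and 597 contacts in ES-1, ES-2 and ES indirect. Eno1, the glycolytic enzyme enolase, with Gm5506 had 13, 0 and 18 contacts. Ribosomal protein genes formed the third, with 31, 3 and 315 contacts, such as Rplp1 with Gm10073 at 0, 1 and 26 contacts, Rplp0 with Gm8730 at 5, 0 and 21, and Rpl3 with Gm5879 at 1, 0 and 23. ES indirect held most contacts of each pair named here.

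In 26 genes with at least 30 exonic ends, at least 80% of the ends lay within 30 nt. These genes had an end in 9.99% of contacts in ES-1, 32.5% in ES-2 and 3.14% in ES indirect. Suv420h2, a histone methyltransferase gene, had 55, 291 and 4 ends, of which 347 of 350 lay in 1 window of 30 nt and 0.857% were sense. Dcun1d4 had 31, 216 and 1 ends, all 248 in 1 window. In Zdhhc3, Dffa, Tatdn3 and Rab6a, 94.7% to 100% of ends held a piece of the linker or adapter. Rab6a had 0, 1 and 37 ends, Sec14l1 had 5, 25 and 28, and Igdcc4 had 21, 17 and 0, so that ES-2 did not hold most ends of every such gene. In Suv420h2, 99.1% of ends were covered by structural RNA words and 25.1% matched mm9 at the stated position. The fragments of Dcun1d4 and Ppp1r14a each shared a run of 19 bases with that of Chn1, although Dcun1d4, Chn1 and Ppp1r14a lie on chromosomes 5, 2 and 7.

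The genes with most placed contacts were chosen after the values were seen. Hsp90ab1, a cytosolic chaperone, had 25 contacts, 13 in ES-1, 0 in ES-2 and 12 in ES indirect. The elongation factor Eef2 had 24 (12, 6 and 6) and Eef1a1 had 22 (12, 2 and 8). These 3 genes had 1569, 1713 and 1546 sense exonic mRNA ends of at least 25 nt joined to any RNA over the libraries, a count that includes sense ends of placed contacts. Atp5b, a subunit of the mitochondrial ATP synthase, had 20 (9, 2 and 9), and so did fibronectin (Fn1: 11, 1 and 8) and the glucose transporter Slc2a3 (10, 2 and 8). The pluripotency factor Sox2 had 15 (8, 2 and 5). These genes had nearly as many partners as contacts: Hsp90ab1 had 24 partners, Eef2 had 23, Eef1a1 had 22 and Sox2 had 15, and no gene pair among the 12 leading genes had more than 2 contacts.

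**Figure D5:**
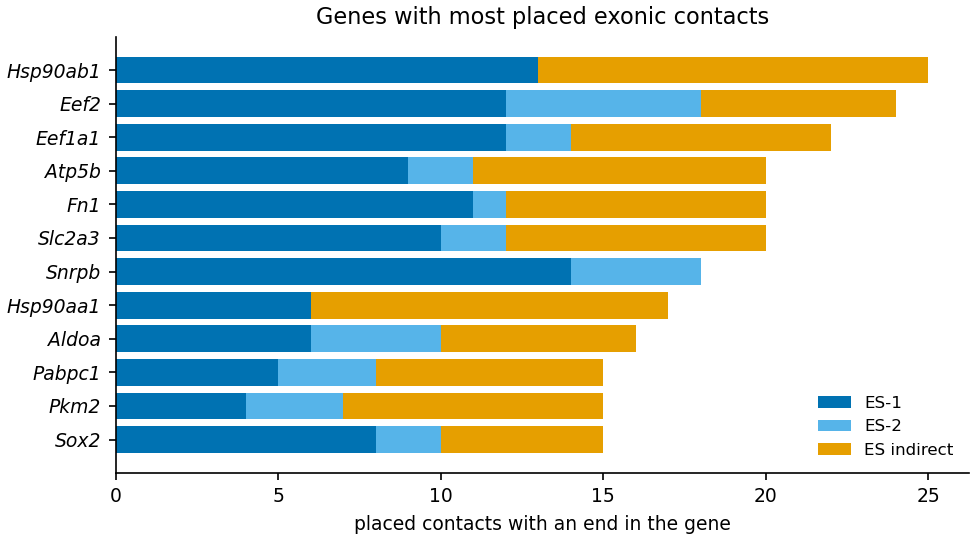
Bars give the number of placed contacts with an end in each of the 12 genes with most, stacked by library. Hsp90ab1 leads with 25 and Sox2 has 15, and Snrpb is the only one of the 12 with most of its contacts in ES-1 and none in ES indirect. Snrpb ends joined to any RNA were also few in ES indirect, at 37 against 873 in ES-1.

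The regions used differed between these genes. All 20 ends in Fn1 and 23 of 24 in Eef2 were labelled exon. In Slc2a3, 13 of 20 lay in utr3, and in Pabpc1, the poly(A)-binding protein, 8 of 15 lay in utr5. In Sox2, 4 ends lay in utr5, 7 in exon and 4 in utr3. The gene name was less certain for some: the 25 reference bases at the linker side lay at 2 or more places in mm9 for 19 of 22 ends in Eef1a1, 15 of 17 in Hsp90aa1 and 13 of 25 in Hsp90ab1, but for none of 20 in Atp5b, Fn1 and Slc2a3. All 13 ends of the gene model Gm10925 had these bases in the mitochondrial genome too. Over all placed ends, 16.2% in ES-1, 12.3% in ES-2 and 15.2% in ES indirect lay at 2 or more places. With both ends at 1 place, 2537 contacts remained, and the ratio for 2 utr3 ends over the 3 libraries was 1.01 (0.936 to 1.08).

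Snrpb, a core protein of the spliceosome, was unlike the other genes with at least 10 placed ends. All 18 of its ends were labelled utr3 and sense, 14 in ES-1, 4 in ES-2 and 0 in ES indirect, and all lay between chr2:129998643 and 129998723 on the minus strand. Its sense exonic mRNA ends of at least 25 nt joined to any RNA numbered 873, 215 and 37 in these libraries. The 0 in ES indirect thus stands beside few Snrpb ends with any partner. Of 35 genes, only Snrpb had at least 80% of its ends over 1 base. Of the 3 GENCODE transcripts over the place, 1 has an exon there, while in the other two it lies in an intron of bases 129998465 to 129998771. Of 11 fragments that were RNA2, 7 began at base 129998714. The 30 reference bases from there (chr2:129998685-129998714) are shown because the fragments started together, with the letters ATGATGA in capitals.
Snrpb: attcATGATGAaatagatccttgactgaag

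These letters match the C box motif known from small nucleolar RNAs. They were in the first 30 bases of 13 of 16 Snrpb fragments of at least 30 nt. These fragments come from the same short stretch, so that count follows from their position and is not a test. Of 6620 other placed fragments, 23 (0.347%) held the letters, searched on the strand of the fragment only. A match is a description and not a site. No annotation of small nucleolar RNAs beyond that of GENCODE was used here.

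Of 7569 genes with an exonic contact, 3065 (40.5%) were seen in 2 or more libraries, and 931 in all 3. The count was 1637 without ES-1, 1648 without ES-2 and 1642 without ES indirect. In placed contacts this was 949 of 3875 (24.5%), and 159 in all 3. Across 11762 to 13824 genes, most of them without a placed contact, the placed contact count of a gene correlated between libraries at rho of 0.161 to 0.249. Within a library, the contacts of a gene correlated with its mRNA ends at rho of 0.392 in ES-1, 0.273 in ES-2 and 0.434 in ES indirect. The part of mRNA level in the correlation between libraries was not tested. Genes are not independent replicates.

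Of 10753 gene pairs, 117 (1.09%) were seen in 2 or more libraries, and 99 of these had a contact found in the partner gene. Without ES-1 this count was 26 and without ES indirect 27. Of the remaining 18, 14 had a contact that did not match mm9, such as Dcun1d4 with Ppp1r14a at 1 contact in ES-1 and 9 in ES-2. In placed contacts, 2 of 3454 pairs (0.0579%) were seen in 2 libraries and none in 3, and no placed contact had the same coordinates in 2 libraries. A pair with 1 contact cannot be seen in 2 libraries, and 95.8% of all exonic pairs and 98.1% of placed pairs had 1. The share over all pairs of RNAs was not counted, so whether exonic pairs recur less than others was not tested. Hnrnpa0 with Mcm5, printed above, had 1 contact in ES-1 and 1 in ES indirect, in opposite order and at different places in both mRNAs, with all ends sense. This pair had 2 read pairs against 0.00651 expected, below the minimum of 3 read pairs for a call. It was picked because it was seen in 2 libraries, so no p is given.

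Lrpprc, a mitochondrial RNA-binding protein, with Tm9sf3, a membrane protein, had 1 contact in ES-1 and 1 in ES-2. The 2 contacts lay within 1 base of each other but on opposite strands, so that the fragments were reverse complements: sense in ES-1 and antisense in ES-2. The Lrpprc end lay at chr17:85152740-85152769 in ES-1 and differed from mm9 at 5 of 30 bases there and at 4 in ES-2. The sequences are printed to show this, with the 8 bases next to the linker in capitals.
Lrpprc (RNA1, ES-1): atacttccatcagctgcaggagATGAATGA
Tm9sf3 (RNA2, ES-1): AGCAGGTGcatggagatgtgttcagaccgt
Tm9sf3 (RNA1, ES-2): cggtctgaacacatctccatgcACCTGCTT
Lrpprc (RNA2, ES-2): CATTCATCtcctgcagctgatggaagtatt

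Pairs of RNAs joined more often than their totals give were called by a one-sided Fisher's exact test on the 3 libraries merged, at a Benjamini-Hochberg adjusted p under 0.05 with at least 3 distinct read pairs. The test takes each distinct read pair as a separate molecule and covers counting error only. Read pairs with a ribosomal or unannotated end, or with ends within 2000 bp on the same chromosome, were left out, and only observed pairs were tested. Over the RNAs left, 5871 of 367088 pairs were called (1.6%). Among pairs with an exonic contact, 171 of 10753 were called (1.59%), which is close to the background. The minimum of 3 read pairs set most of this share. Only 175 of the 10753 pairs had at least 3 exonic contacts, and 166 of the called pairs were among them. Of the 171, 151 had copies in at least 50% of their contacts and 167 had no placed contact. Without ES indirect 34 pairs were called. Gm10718 with Gm10800, at 209 read pairs against 1.09 expected, led the list, and Rplp1 with Gm10073 had 27 against 0.00830. Every contact of both pairs had a fragment found in the partner gene. The expected counts treat the names as separate RNAs, so no p is given for these pairs.

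Only 4 called pairs had a placed contact, and 3 of them are described here. Ctcf, an insulator protein, with Aff4, a subunit of an elongation complex, had 4 placed contacts in ES-1 from 33 lines, against 0.00362 read pairs expected. All 4 contacts lay at 1 place in 1 orientation, and whether they came from 1 ligated molecule was not tested, so no p is given. Gm10925 with Hirip3 had 2 placed contacts in ES-1, and Upp1 with Zc3h11a had 1 in ES indirect. In ES-1, the leading Ctcf and Aff4 contact had 26 lines, with RNA1 at chr8:108188115-108188144 and RNA2 at chr11:53229201-53229230, both on the plus strand and the 8 bases next to the linker in capitals.
Ctcf (RNA1, ES-1): accgatgatatgtcacaccttaCCTTTGCC
Aff4 (RNA2, ES-1): AATGTGACaagtatttaaatgcttctaaac

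Repeat contacts as a rule overlapped in both genes, which is counted here as 1 place whatever the strand. Whether their ligation points were the same was not tested. Of 66 placed pairs with at least 2 contacts, 63 lay at 1 place, and 3 had 2 places, among them Hnrnpa0 with Mcm5 and Dst with Ubb. The number of lines of a contact reached 84 for Jup with Hspa8 and 80 for A830080D01Rik with Zfp518b, both in ES-1. Of the 12 placed contacts with most lines, 8 had fragments of 90 and 100 nt. More than 1 line was seen for 361 of 1143 placed contacts in ES-1, 28 of 404 in ES-2 and 420 of 1976 in ES indirect.

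Gene families took 0.604 to 1.47 times their share of all sense, matched exonic mRNA ends of at least 25 nt of the same library in placed contacts. Placed ends of both orientations were counted, of which nearly all were sense. Replication-dependent histone genes held 63 of 2286 placed ends in ES-1 (1.34 times their share of all such mRNA ends), 18 of 808 in ES-2 (0.794) and 142 of 3952 in ES indirect (0.779). Single histone genes could often not be told apart: the bases at the linker side lay at 2 or more places in mm9 for 10 of 12 placed ends in Hist1h3i, 8 of 10 in Hist1h3c and 10 of 10 in Hist2h2aa2. Cytosolic ribosomal protein genes held 53, 16 and 67 ends (1.07, 0.793 and 0.881), translation factors 65, 18 and 61 (1.09, 0.855 and 1.04) and chaperones 50, 8 and 57 (1.09, 0.604 and 1.34). Glycolysis genes, among them Slc2a3, Aldoa and Pkm2, held 40, 13 and 63 (1.02, 0.883 and 1.10), and 9 of 16 ends in Aldoa and 10 of 15 in Pkm2 lay at 2 or more places, against 0 of 20 in Slc2a3. Cytoskeleton genes held 19, 12 and 42 (0.839, 1.44 and 1.03), nuclear RNA-binding proteins 43, 16 and 95 (0.929, 1.07 and 1.24) and pluripotency factors 38, 7 and 33 (1.47, 0.749 and 0.741). No list of these 8 stood above 1 or below 1 in all 3 libraries, and the ratios were not tested. The mRNA ends they were set against differed in partner between libraries. In ES-1, ES-2 and ES indirect, 11.3%, 5.74% and 49.2% of them were joined to the same gene name. Ribosomal RNA was the partner of 47.8%, 44.4% and 22.2%, so the ratios are not alike across libraries.

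In all contacts the satellite-like gene models held 200, 64 and 855 ends, or 3.02%, 0.737% and 8.83%. In placed contacts they held 0 of 2286, 0 of 808 and 2 of 3952 ends. Both ends lay in such models in 95, 26 and 388 contacts, and placed contacts leave out fragments found in the partner gene, so that the low placed counts follow from the rule and are no measure of these models. Ribosomal protein genes in ES indirect held 4.13% of ends in all contacts and 1.70% in placed contacts, which the same rule affects. No end of any exonic contact was assigned to the mitochondrial chromosome.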

How the data were processed

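The authors mapped both fragments of each linker-containing read pair to mm9 (NCBIM37), with TopHat2 2.1.1 named in the submitters' processing notes, and deposited 1 line per read pair with coordinates, strand, fragment sequences, RNA type, gene name and region of both ends. The files hold 3230403 (ES-1), 1312314 (ES-2) and 3302146 (ES indirect) lines, or 2310134, 1241787 and 1655476 distinct read pairs. MEF and brain libraries were not used here. Members and gene lists were chosen with earlier results of these data known, and the states of fragments after seeing the fragments.

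Fragments were compared with mm9 by position (pysam 0.24.0) and placed in GENCODE vM1 transcripts of the partner gene with at most 10% edits (edlib 1.3.9.post1). Gene parts came from GENCODE vM1. Shares have Wilson and differences Newcombe 95% intervals. Observed over expected counts used the row and column totals of each library, with an interval from the counts. Pairs were tested by one-sided Fisher's exact tests, adjusted by Benjamini-Hochberg over the 367088 observed pairs without ribosomal or unannotated ends (scipy 1.17.1). The statistics were tested on simulated data. Genes named are the 12 with most contacts, those leading each library and list, repeated and called pairs, and, chosen after seeing the values, the genes with most placed contacts, the recurrent fragments and Snrpb. A few gene pairs that this rule names are not reported here.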

Additional observations from a re-analysis of the deposited data

How the results depend on the processing

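Limits of these values are that each library is 1 sample, that short fragments fix a place poorly, and that the 5 states of fragments and the search for repeated places were chosen after seeing the data. No paired analysis was possible because each test was made within a library or on the merged libraries, with no groups of replicates to pair.

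Counting every line gave 5602 contacts in ES-1, exonic shares of 24.2% in ES-1 and 8.65% in ES indirect, 42.0% of contacts found in the partner gene in ES indirect, and 876 called pairs. Fragments that match mm9 left 2097 contacts in ES-1, 1525 in ES-2 and 1819 genes in 2 or more libraries. Placed contacts numbered 1143, 404 and 1976, with 949 genes and 2 gene pairs in 2 or more libraries. Both ends sense left 2014 contacts in ES-2 with a Cramér's V of 0.0439, no longer past the threshold, and put 9.73% of those in ES-1 in the partner gene. A minimum of 20 nt left 2163 in ES-2. Adding contacts over 2000 bp apart on the same chromosome gave 7449 in ES indirect and 225 repeated pairs. With these added, the share of replication-dependent histone genes among all ends rose from 2.48% to 14.2%.

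Leaving out fragments found in the partner gene left 3133 contacts in ES indirect, 18 repeated pairs and 20 called pairs. V fell to 0.0306 (ES-1) and 0.0110 (ES indirect), no longer past the threshold, but in ES-2 it was 0.0420, still past it, and the ratio for 2 utr3 ends was 1.07 in ES-1, 1.01 in ES indirect and 1.02 over the 3 libraries. In placed contacts V was 0.0273, 0.057 and 0.0155 and the ratio 1.05 in ES-1, 0.962 in ES indirect and 1.00 over the 3 libraries. With both ends at 1 place V was 0.0347, 0.0656 and 0.0220 in ES-1, ES-2 and ES indirect, and the ratio 1.04, 1.13 and 0.978 in these, and 1.01 over the 3 libraries.

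A minimum of 2 read pairs gave 432 called pairs, ES-1 alone 21 and ES-2 alone 10. Leaving out each library in turn gave 1637 to 1648 genes and 26 to 90 gene pairs in 2 or more libraries, and 34 to 156 called pairs. The 26 pairs were without ES-1 and the 34 called pairs without ES indirect. The ratio for 2 utr3 ends stayed at 1.11 to 1.30. The ES indirect ratio, 1.38 in all contacts, crossed to below 1 in placed contacts (0.962) and at 1 place (0.978). That of ES-2, 1.00 and not past the threshold, became 0.939 with both ends sense and 0.982 without fragments found in the partner gene. The 95% intervals of these 4 values held 1.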
